A study of Homo sapiens with 21 samples.

Results

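Transcripts of 10 glutathione transferase genes were followed in C3A cells, which were cloned from the human liver tumour line HepG2, and were picked from the deposited expression tables by gene symbol. They are GSTA1, GSTA2 and GSTA4 of the alpha class, GSTM4 of the mu class, GSTP1 of the pi class, GSTO1 of the omega class, GSTK1 of the kappa class, and the membrane enzymes MGST1, MGST2 and MGST3. All 10 were among 28808 genes listed, and 9 of them were among the 13405 genes tested, GSTP1 being too low. RNA sequencing covered 21 libraries of wild-type C3A cells grown in MEM with fetal bovine serum. Each of 5 exposures lasted 48 h and gave 3 libraries: the herbicide glyphosate at 5.6 µM (0.95 µg/mL), AMPA, which forms when glyphosate breaks down, at 34 µM (3.7 µg/mL), the herbicide 2,4-D at 2.5 µM (0.56 µg/mL), glyphosate+2,4-D, and finally AMPA+2,4-D, each compound of a mixture at its single concentration. Unexposed cells gave 6 libraries, replicates 4-6 and 1-3, with the treatment given as none and no vehicle named. All groups thus share 1 clonal tumour line, and each library is bulk RNA, so that fewer expressing cells and less RNA per cell cannot be told apart.

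Cytosolic glutathione transferases work as dimers that join reduced glutathione to electrophilic compounds or reduce peroxides. Alpha class enzymes are abundant in normal hepatocytes, whereas GSTP1 is low there. The kappa enzyme sits in mitochondria and peroxisomes, and the MAPEG family, to which the MGST proteins belong, sits in membranes. Conjugates leave the cell through ABCC transporters and are trimmed to mercapturates. HNF4A drives liver genes, and NFE2L2 acts with small MAF proteins at antioxidant response elements of many glutathione genes.

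Expression was given as FPKM, read numbers divided by gene length and by a scale value per library. Whole reads could be recovered from it at 15.2 to 24.35 M per library. The 6 groups lie in separate tables, and the sources used here do not say how these were scaled. Median-of-ratios factors take, per library, the median over genes of the ratio to the geometric mean of all libraries. They were 0.995 to 1.01 over the 21 libraries, so the deposited values were already near a common scale of that kind across groups. The total implied by the FPKM scale was 0.942 to 1.01 times the recovered reads in exposed libraries and 1.03 to 1.08 times in unexposed libraries. Where it fell below the recovered reads, it was not a plain total of reads. Hepatocyte markers, 8 of 8 listed, summed to 9116 to 10680 FPKM in exposed and 5586 to 9252 FPKM in unexposed libraries. Of the leukocyte markers 2 of 4 were listed, CD68 at no more than 0.199 FPKM and LYZ at 473 to 625 FPKM in exposed and 324 to 615 FPKM in unexposed libraries, while endothelial markers (3 of 3) summed to at most 0.200 FPKM. Fibroblast markers (2 of 3) reached at most 0.0257 FPKM. Of the hepatocyte markers 6 were called higher and 1 lower in each exposure than in unexposed cells (limma). Of all genes tested, 25.0% to 28.0% were called higher and 22.6% to 25.1% lower there. All 8 markers were higher in unexposed replicates 4-6 than in 1-3, against 15.7% of all genes. The part of these markers and of the scale in the results below was not tested.

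GSTA1 and GSTA2 are close copies on chromosome 6, so their sequences are shown to make clear what could tell their reads apart. GSTA1 (ENSG00000243955) lies at chr6:52791664-52803910 and GSTA2 (ENSG00000244067) at chr6:52750089-52763569, both on the minus strand (GRCh38). The coding sequences of their chosen transcripts, 669 bases each in GENCODE release 29, differ at 22 positions, an identity of 96.71%. The longest identical run is 209 bases. The following 90 coding bases, positions 294 to 383, hold 8 of the differences, marked by capitals.
GSTA1: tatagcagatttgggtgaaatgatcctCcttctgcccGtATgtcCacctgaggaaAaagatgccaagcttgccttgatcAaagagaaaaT
GSTA2: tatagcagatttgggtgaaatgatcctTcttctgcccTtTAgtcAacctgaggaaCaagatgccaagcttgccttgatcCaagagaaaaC

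Of all 50-base windows in the chosen transcripts, 28.87% of those of GSTA1 and 18.35% of those of GSTA2 occur in a transcript of another gene. At 100 bases 11.96% and 9.06% do, and at 150 bases 6.90% and 5.15% do. GSTA4 is more distant, with 62.03% coding identity to GSTA1 and 63.9% to GSTA2. GSTM4 shared 18.64% of its 50-base and 4.49% of its 100-base windows with GSTM1, GSTM2 and other genes and none at 150 bases. GSTO1 shared 3.36% of its 50-base windows with GSTO3P and none at 100 bases. Reads in shared windows can be assigned to either gene or dropped, and the rule used for them is not given in the sources used here. The separate values of GSTA1 and GSTA2 are therefore uncertain, and their sum is given beside them.

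The upstream sequences of the pair are also nearly the same. In the RefSeq window (GRCh38.p14) from 250 bases before the start of transcription, the genes were 97.2% identical, with 7 differences. The part that lies outside every annotated exon, 250 to 95 bases before the start, is shown on the minus strand for GSTA1 (chr6:52803911-52804066) and GSTA2 (chr6:52763570-52763725), with the 4 differences in capitals.
GSTA1: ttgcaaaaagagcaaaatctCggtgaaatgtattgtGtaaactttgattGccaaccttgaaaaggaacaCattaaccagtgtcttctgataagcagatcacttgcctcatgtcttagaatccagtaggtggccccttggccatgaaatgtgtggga
GSTA2: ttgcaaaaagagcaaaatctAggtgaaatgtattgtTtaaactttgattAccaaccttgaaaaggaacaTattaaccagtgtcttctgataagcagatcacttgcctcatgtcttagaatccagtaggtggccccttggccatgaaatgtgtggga

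Read on both strands, the core of the antioxidant response element, TGACNNNGC, occurs in 11% of 27305 RefSeq windows of 250 bases and, among the 9 members matched, in those of GSTA4, GSTP1 and GSTO1. The AP-1 letters TGANTCA occur in 6.60% of windows and in that of GSTP1, where they overlap the TGACNNNGC match. A further motif was searched and is not reported here, so these matches are not all that were found. A match describes the letters and does not show a bound site.

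The other members are spread over the genome (GRCh38). GSTA4 lies near the pair at chr6:52977948-52995378 on the minus strand. The remaining genes lie on plus strands, GSTM4 at chr1:109656081-109674836, GSTP1 at chr11:67583595-67586656, GSTO1 at chr10:104235356-104267459 and GSTK1 at chr7:143244093-143270854. The membrane enzymes lie at chr12:16347142-16609259 (MGST1), chr4:139665768-139740745 (MGST2) and chr1:165630861-165661796 (MGST3). Exons of GSTM4 overlap those of GSTM2 by 375 bases on the same strand, and exons of MGST2 overlap those of MAML3 by 252 bases on the opposite strand, where MAML3 averaged 0.0249 FPKM.

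Levels per gene length spanned a wide range. Over the 21 libraries GSTO1 averaged 77.2 ± 6.97 FPKM, MGST2 31.5 ± 5.15, GSTK1 14.1 ± 0.755 and MGST1 11.4 ± 5.29 FPKM (SD, n = 21 libraries). GSTA2 averaged 5.55 ± 3.00, GSTA4 3.87 ± 0.838, GSTA1 2.70 ± 1.95, MGST3 1.38 ± 0.166 and GSTM4 1.37 ± 0.161 FPKM on the same scale. GSTO1, MGST2 and GSTK1 had ranges over libraries that did not overlap in this order, and from GSTK1 down to GSTM4 the range of each gene overlapped that of its neighbour. The order depends on the length used, and a scale per kilobase of a chosen coding transcript was added after the data were seen. That transcript was picked by annotation rank and then by length. On this scale GSTO1 averaged 141, MGST2 83.4 and MGST1 70.3 FPKM in exposed libraries. In unexposed ones MGST1 averaged 129, GSTO1 119 and MGST2 65.98 FPKM. The unexposed means of MGST1 and MGST2 pool replicates 4-6 and 1-3, which lay apart. Per gene length, MGST1 was at 8.87 to 10.9 FPKM in replicates 4-6 and 22.4 to 25.0 FPKM in replicates 1-3. MGST2 was at 32.2 to 34.0 FPKM in replicates 4-6 and 18.2 to 20.8 FPKM in replicates 1-3. The order within either set alone was not worked out. GSTP1 gave 8 reads in all 21 libraries, 4 in exposed and 4 in unexposed cells, too few for a comparison.

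**Figure D1:**
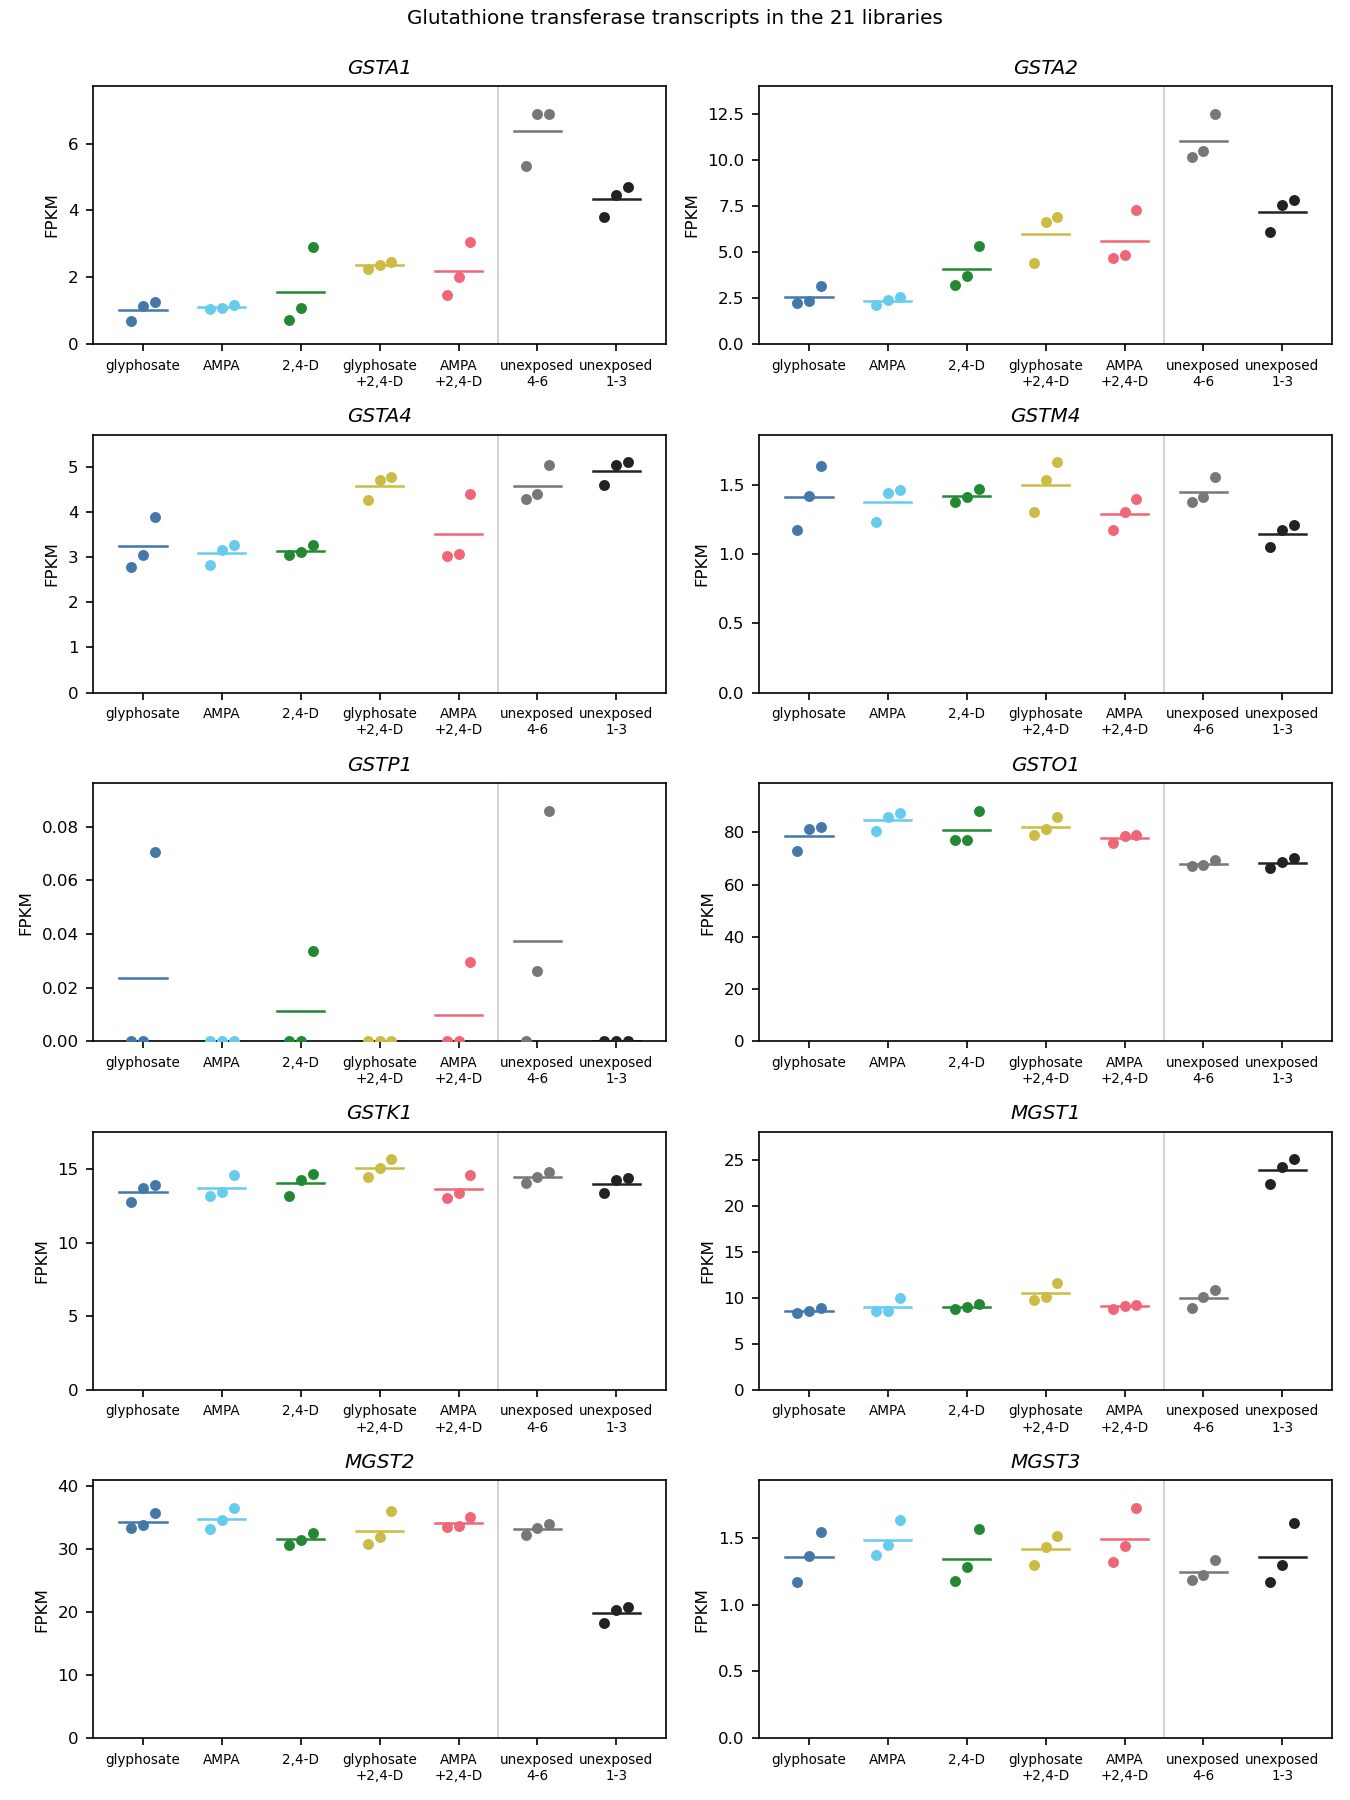
FPKM of each glutathione transferase gene (linear y axes from 0) in the 21 libraries, by group on the x axis with the exposures left of unexposed replicates 4-6 and 1-3; points are libraries and bars are means. GSTA1 is at 0.691 to 3.06 FPKM in the exposed libraries and at 3.81 to 6.90 FPKM in the unexposed ones, while MGST1 and MGST2 set unexposed replicates 1-3 apart from all other libraries.

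Against the 6 unexposed libraries, GSTA1 and GSTA2 were lower and GSTO1 higher in every exposure, and GSTA4 was lower in every exposure but glyphosate+2,4-D. MGST1 and MGST2 also passed the test in several exposures, but apart from MGST1 with glyphosate these calls were lost without unexposed replicates 1-3. Tests were made with limma on log2(FPKM + 1) over all 21 libraries, with Benjamini-Hochberg adjustment over all genes tested and a threshold of 0.05. Since the 5 comparisons share the unexposed libraries, like results in them are not independent, and since the labels do not say that replicates were separate cultures, p-values measure the spread between these libraries.

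Of the 9 members tested, 2 were higher and 4 lower with glyphosate, against 27.7% of all genes higher and 25.1% lower (52.7% called). AMPA gave 2 higher and 4 lower, against 28.0% and 24.8% of all genes (52.8% called). With 2,4-D, 1 was higher and 4 were lower, against 25.0% and 22.6% (47.6% called). The exposure to glyphosate+2,4-D gave 1 higher and 2 lower, against 25.4% and 22.7% (48.1% called), and AMPA+2,4-D gave 2 higher and 4 lower, against 26.0% and 24.4% (50.4% called). The median log2 difference of the members was −0.07, −0.05, −0.02, 0.07 and −0.06 in the same order, and that of all genes lay between 0.00050 and 0.014. Members whose exposed and unexposed libraries did not overlap numbered 5, 4, 4, 2 and 2 of 9, against 45.5%, 44.4%, 39.7%, 40.4% and 39.3% of all genes. With about this share of all genes called, nothing particular to the family is drawn from these counts.

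GSTA1, a major alpha class enzyme of liver, which conjugates busulfan among other drugs, had the largest log2 difference of the 9 members tested in each exposure against the 6 unexposed libraries, with AMPA only just ahead of GSTA2. Against unexposed replicates 4-6 alone GSTA2 was ahead with AMPA (−1.84 against −1.81), and against replicates 1-3 alone MGST1 was ahead with 2,4-D (−1.31 against −1.14), with glyphosate+2,4-D (−1.11 against −0.66) and with AMPA+2,4-D (−1.31 against −0.77). GSTA1 stood at 1.26, 0.691 and 1.13 FPKM with glyphosate, at 1.05, 1.07 and 1.16 FPKM with AMPA, and at 0.726, 2.90 and 1.07 FPKM with 2,4-D. It stood at 2.38, 2.24 and 2.45 FPKM with glyphosate+2,4-D and at 3.06, 2.00 and 1.47 FPKM with AMPA+2,4-D, against 5.32, 6.90 and 6.89 FPKM in unexposed replicates 4-6 and 3.81, 4.47 and 4.71 FPKM in replicates 1-3. No exposed library reached the lowest unexposed one, and the 15 exposed libraries averaged 1.64 ± 0.788 FPKM, against 5.35 ± 1.29 FPKM in the 6 unexposed ones (SD). These values are thin, resting on 13 to 55 reads in exposed and 80 to 143 reads in unexposed libraries.

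On the log2(FPKM + 1) scale GSTA1 fell by 1.63 with glyphosate (SE 0.21, limma adjusted p 4.738e-06) and by 1.58 with AMPA (adjusted p 6.927e-06). It fell by 1.37 with 2,4-D (limma adjusted p 4.057e-05), where replicate 2 was the highest library, and by 1.72 without that library. In the mixtures it fell by 0.90 with glyphosate+2,4-D (limma adjusted p 0.001926) and by 1.00 with AMPA+2,4-D (0.0007336). It remained called in each exposure under every setting tried, and against unexposed replicates 4-6 alone and 1-3 alone.

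GSTA2, the near copy with overlapping substrates, stood at 3.13, 2.24 and 2.31 FPKM with glyphosate, at 2.12, 2.57 and 2.37 FPKM with AMPA, and at 3.21, 5.36 and 3.68 FPKM with 2,4-D. It stood at 6.89, 4.39 and 6.63 FPKM with glyphosate+2,4-D and at 7.30, 4.70 and 4.81 FPKM with AMPA+2,4-D, against 10.2, 12.5 and 10.5 FPKM in unexposed replicates 4-6 and 6.10, 7.59 and 7.86 FPKM in replicates 1-3. The single compounds left no overlap with unexposed libraries, and both mixtures overlapped with unexposed replicates 1-3.

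GSTA2 fell by 1.48 with glyphosate (limma adjusted p 3.885e-06), by 1.56 with AMPA (2.063e-06) and by 0.98 with 2,4-D (0.000331), each with an SE of 0.19 on the log2 scale. In the mixtures it fell by 0.53 with glyphosate+2,4-D (limma adjusted p 0.02803) and by 0.60 with AMPA+2,4-D (0.01252). The calls in both mixtures were lost against unexposed replicates 1-3 alone, where the differences were −0.24 (limma adjusted p 0.2751) and −0.32 (0.1457). They were also lost without glyphosate+2,4-D replicate 2 (adjusted p 0.1899), without unexposed replicate 5 (0.05453) or 6 (0.05057) or with the compared groups alone (0.06367) in that mixture, and without AMPA+2,4-D replicate 2 (0.06494) or 3 (0.06652).

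Summed to 1 value, GSTA1 and GSTA2 gave log2 differences of −1.73 with glyphosate, −1.77 with AMPA, −1.24 with 2,4-D, −0.71 with glyphosate+2,4-D and, last, −0.81 with AMPA+2,4-D, with limma adjusted p between 1.515e-06 and 0.008726. The sum is one of FPKM over gene lengths of 1019 and 1313 bases, so that it still depends in part on how reads were split within the pair, and on reads that were dropped. The ratio of GSTA2 to GSTA1 in FPKM had a median of 2.48 with glyphosate, 2.04 with AMPA, 3.42 with 2,4-D, 2.71 with glyphosate+2,4-D and 2.39 with AMPA+2,4-D, against 1.82 in unexposed replicates 4-6 and 1.67 in replicates 1-3. Every exposed ratio but 1 in 2,4-D (1.85) exceeded the highest of unexposed replicates 4-6, 1.91. Ratios of such low read numbers carry wide counting error and were not tested.

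**Figure D2:**
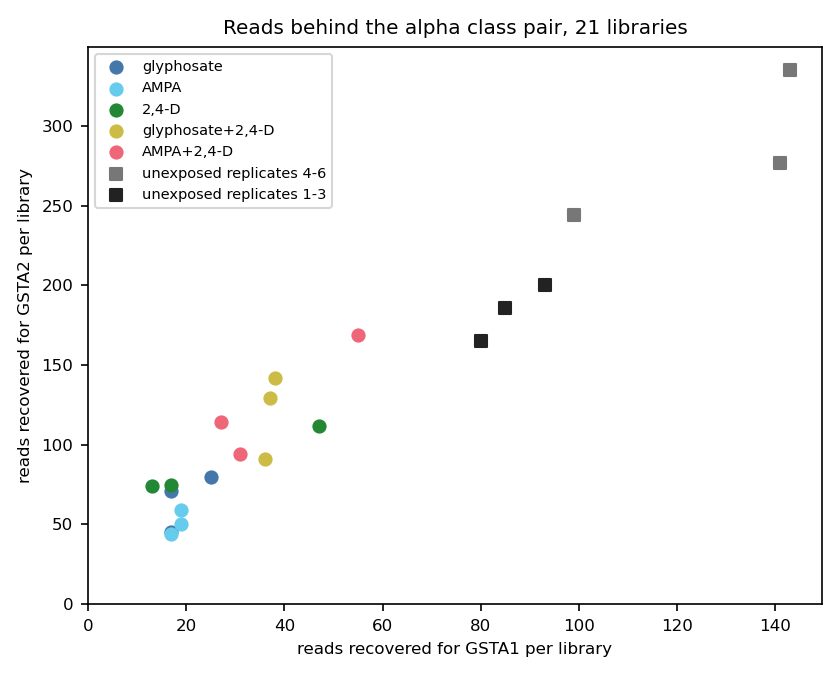
Reads recovered per library for GSTA1 (x axis) and GSTA2 (y axis), linear scales; circles are exposed and squares unexposed libraries. The exposed libraries lie at 13 to 55 reads for GSTA1 and 44 to 169 for GSTA2, and the unexposed ones at 80 to 143 and 165 to 335 reads.

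Libraries with more GSTA1 reads tended to have more GSTA2 reads, as the plot of reads shows. Pearson's r of their log2(FPKM + 1) was 0.94 over the 21 libraries and 0.875 over the 15 exposed ones, given as a description since the genes share groups and may share reads.

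GSTA4, the alpha enzyme that prefers 4-hydroxynonenal and related products of lipid peroxidation, stood at 3.05, 3.89 and 2.79 FPKM with glyphosate, at 3.28, 2.84 and 3.15 FPKM with AMPA, and at 3.06, 3.26 and 3.11 FPKM with 2,4-D. It stood at 4.28, 4.72 and 4.78 FPKM with glyphosate+2,4-D and at 4.41, 3.08 and 3.03 FPKM with AMPA+2,4-D, against 4.40, 4.29 and 5.06 FPKM in unexposed replicates 4-6 and 5.11, 4.60 and 5.05 FPKM in replicates 1-3. The single compounds lay below every unexposed library, glyphosate+2,4-D overlapped with them, and in AMPA+2,4-D replicate 1 did so while replicates 2 and 3 lay below. GSTA4 fell by 0.45 with glyphosate, 0.49 with AMPA, 0.47 with 2,4-D and 0.36 with AMPA+2,4-D on the log2 scale (SE 0.09, limma adjusted p 0.0001527 to 0.002444). With glyphosate+2,4-D the difference was −0.04 (limma adjusted p 0.7377).

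GSTO1, the omega enzyme, acts as a thioltransferase and dehydroascorbate reductase and was the most abundant member per gene length. It stood at 72.8, 81.4 and 81.9 FPKM with glyphosate, at 86.0, 80.4 and 87.3 FPKM with AMPA, and at 77.1, 77.1 and 88.3 FPKM with 2,4-D. It stood at 79.2, 81.3 and 85.8 FPKM with glyphosate+2,4-D and at 79.0, 76.0 and 78.6 FPKM with AMPA+2,4-D, against a lowest, median and highest value of 66.4, 68.1 and 70.0 FPKM in unexposed cells. All 15 exposed libraries lay above all 6 unexposed ones. The log2 differences were small, at 0.20, 0.31, 0.24, 0.26 and 0.19 in the 5 exposures in that order (SE 0.05, limma adjusted p 3.062e-05 to 0.002793). They were also called against either unexposed set alone. Rescaled to 1 common total per library (TPM), the direction stayed but the differences were 0.10, 0.14, 0.14, 0.13 and 0.077, and AMPA+2,4-D was no longer called (limma adjusted p 0.13).

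MGST1, a peroxidase and transferase of the endoplasmic reticulum and outer mitochondrial membrane, and MGST2, which can also make leukotriene C4, set the unexposed libraries against each other. MGST1 stood at 8.34 to 11.6 FPKM in the 15 exposed libraries and at 8.87, 10.1 and 10.9 FPKM in unexposed replicates 4-6, against 22.4, 24.3 and 25.0 FPKM in unexposed replicates 1-3. MGST2 stood at 30.7 to 36.5 FPKM in exposed libraries and at 33.4, 34.0 and 32.2 FPKM in unexposed replicates 4-6, against 20.8, 20.4 and 18.2 FPKM in replicates 1-3. Unexposed replicates 4-6 lay among the exposed libraries for both genes, and replicates 1-3 lay far outside them, on the high side for MGST1 and on the low side for MGST2.

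Between the unexposed sets, replicates 4-6 against 1-3, MGST1 fell by 1.19 (SE 0.07, limma adjusted p 1.267e-09), MGST2 was 0.72 higher (SE 0.06, 3.744e-08) and GSTA2 0.56 higher (SE 0.18, 0.02042) on the log2 scale. These were 3 of the 9 members, 2 higher and 1 lower, against 15.7% of all genes higher and 15.9% lower (31.6% called). The GSTA2 call was lost without unexposed replicate 1 (limma adjusted p 0.08717) or 5 (0.08574). The libraries of the 2 sets did not overlap for 5 members (GSTA1, GSTA2, GSTM4, MGST1 and MGST2), against 45.5% of all genes. GSTA1 differed by 0.46 (adjusted p 0.1294, limma) and GSTM4 by 0.19 (0.0713), while GSTO1, GSTA4, GSTK1 and MGST3 differed by −0.09 to 0.04. The labels give all 6 libraries 1 treatment and name no batch, so what separates the sets is not given in the sources used here.

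Against all 6 unexposed libraries MGST1 fell by 0.78, 0.72, 0.72 and 0.71 with glyphosate, with AMPA, with 2,4-D and with AMPA+2,4-D (SE 0.25, limma adjusted p 0.01438 to 0.02513). With glyphosate+2,4-D the difference was −0.52 (limma adjusted p 0.09669). Leaving out single libraries ended the call with 2,4-D (unexposed replicate 1 or 2, or any 2,4-D library), with AMPA+2,4-D (unexposed replicate 1 or any AMPA+2,4-D library) and with AMPA (AMPA replicate 1 or 2), with adjusted p up to 0.07295 (limma). Fitting the compared groups alone ended all 4 calls. Against replicates 4-6 alone the difference was −0.19 with glyphosate (limma adjusted p 0.03887), still called, and −0.13 to 0.07 with no call in the other 4 exposures. Against replicates 1-3 alone it was −1.37 to −1.11, called in all 5 exposures.

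MGST2 was 0.40 higher with glyphosate (limma adjusted p 0.03758), 0.42 higher with AMPA (0.02983) and 0.39 higher with AMPA+2,4-D (0.04246). With 2,4-D and glyphosate+2,4-D the differences were 0.29 (limma adjusted p 0.1403) and 0.34 (0.07835). Each of the 3 calls was lost when any one of unexposed replicates 1-3 or of the exposed libraries was left out (limma adjusted p up to 0.1154), and when the compared groups alone were fitted (up to 0.1544). Against replicates 4-6 alone the differences were −0.07 to 0.06, with no call, and against replicates 1-3 alone 0.65 to 0.78, called in all 5 exposures. Pearson's r of the log2 values of MGST1 and MGST2 was −0.947 over 21 libraries and −0.0867 over the 15 exposed ones, a description that turns on unexposed replicates 1-3.

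**Figure D3:**
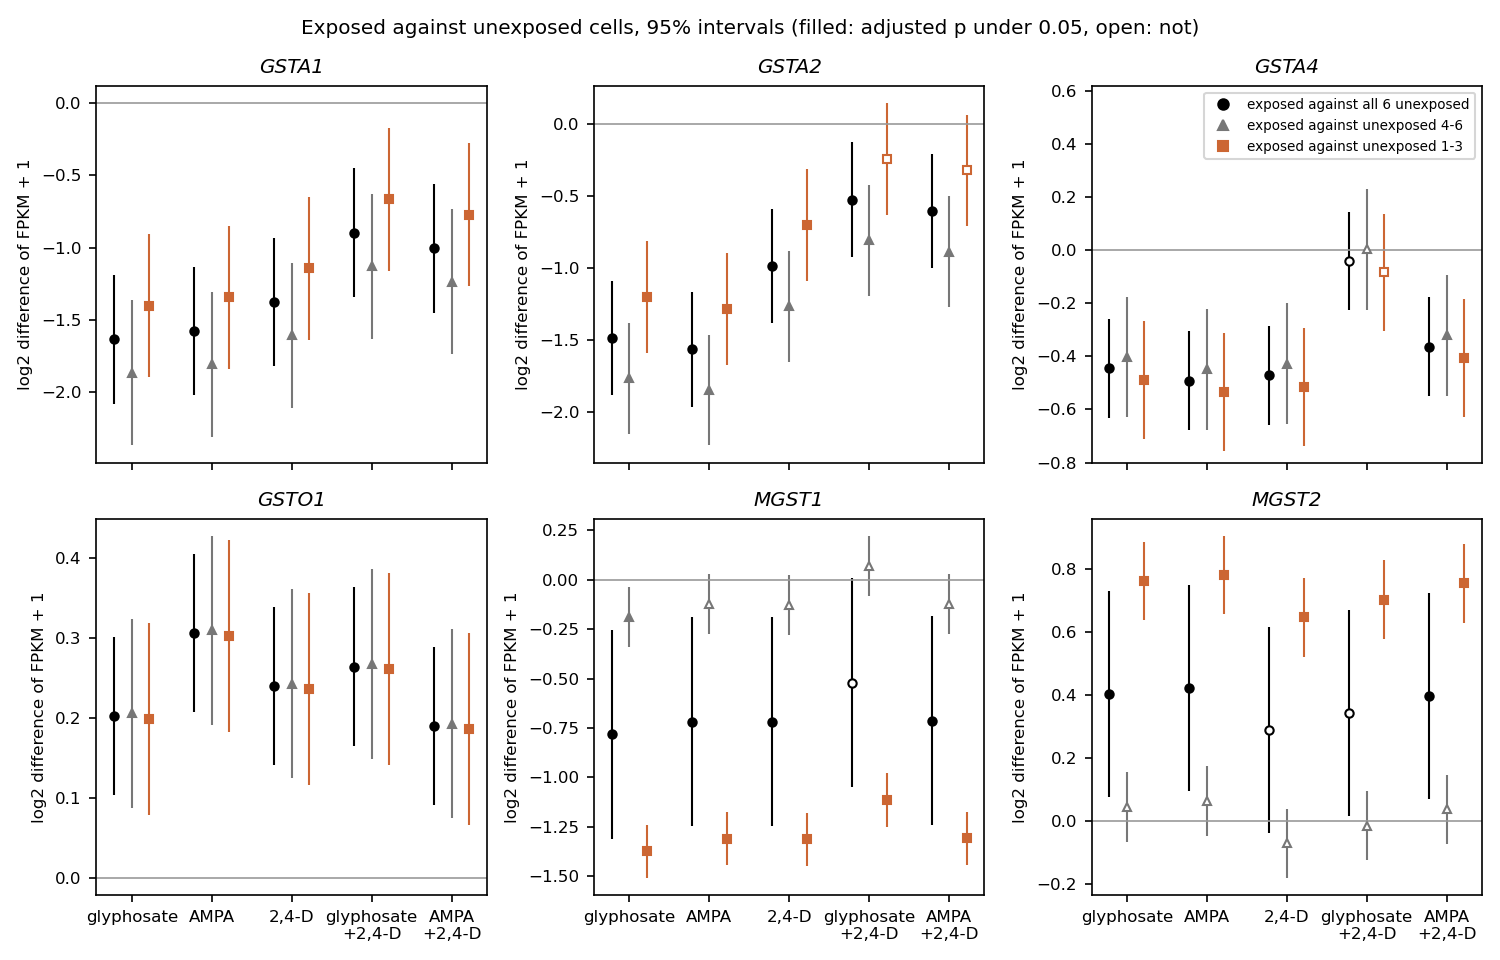
Log2 difference of FPKM + 1 with 95% intervals (y axis; scales differ between panels) for 6 members in each exposure (x axis), against all 6 unexposed libraries (circles), replicates 4-6 alone (triangles) and replicates 1-3 alone (squares); filled symbols have an adjusted p under 0.05. GSTA1 and GSTO1 are filled throughout, whereas MGST2 lies at −0.07 to 0.06 against replicates 4-6 and at 0.65 to 0.78 against replicates 1-3.

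Which members were called depended on the unexposed set, as the plot of differences against each set shows. The share of all genes called changed too, so nothing particular to the family is drawn from these counts. Against unexposed replicates 4-6 alone, 1 member was higher in each exposure, and 4, 3 and 3 were lower with glyphosate, AMPA and 2,4-D, 2 with glyphosate+2,4-D and 3 with AMPA+2,4-D. All genes were called at 50.5%, 50.6%, 45.9%, 46.0% and 49.3% there, in that order, with 27.0%, 27.3%, 24.6%, 24.7% and 25.9% higher and 23.6%, 23.3%, 21.3%, 21.3% and 23.4% lower. Against replicates 1-3 alone 2, 2, 2, 3 and 2 members were higher and 4, 4, 4, 2 and 3 lower, with 56.6%, 57.4%, 53.5%, 54.0% and 54.2% of all genes called. Without unexposed replicate 4 alone, 5 members were called with glyphosate+2,4-D, MGST1 and MGST2 being added, and without AMPA+2,4-D replicate 2 or 3 the count in that mixture was 3.

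GSTK1, GSTM4 and MGST3 passed the test in no exposure. GSTK1, the kappa enzyme, stood at 12.8 to 15.7 FPKM in exposed and 13.4 to 14.8 FPKM in unexposed libraries, with log2 differences of −0.07 to 0.08 (lowest limma adjusted p 0.1697). GSTM4, a mu class enzyme, stood at 1.17 to 1.67 FPKM in exposed and 1.06 to 1.56 FPKM in unexposed libraries, and its differences were at most 0.12 (lowest limma adjusted p 0.1955). Against unexposed replicates 1-3 alone GSTM4 was called with glyphosate+2,4-D, 0.22 higher (limma adjusted p 0.03151). MGST3, a membrane enzyme with peroxidase activity toward lipid hydroperoxides, stood at 1.17 to 1.72 FPKM in exposed and 1.17 to 1.61 FPKM in unexposed libraries, with differences of 0.02 to 0.11 (lowest limma adjusted p 0.2331). The ranges of these 3 genes overlapped between exposed and unexposed libraries. Over all genes the median half-width of the 95% interval, which is not adjusted, was 0.158 on the log2 scale. Over the exposures the intervals spanned −0.17 to 0.18 for GSTK1, −0.16 to 0.29 for GSTM4 and −0.14 to 0.28 for MGST3. Differences within these bounds could be missed.

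Glyphosate and AMPA were given at different concentrations, so their values stand side by side with no comparison. The mixtures hold each compound at its single concentration and could be compared with their components in 4 pairs, each adjusted over all genes. GSTA2 stood at 7.30, 4.70 and 4.81 FPKM with AMPA+2,4-D, against 2.12, 2.57 and 2.37 FPKM with AMPA, without overlap. It was 0.96 higher (SE 0.22, 95% interval 0.50 to 1.42, limma adjusted p 0.03152), 1 of 9 members called, against 2.71% of all genes (0.701% higher). Libraries did not overlap for 3 members, GSTA1 and GSTA2 above and GSTO1 below, against 25.5% of all genes. The GSTA2 call was lost when AMPA+2,4-D replicate 1 (adjusted p 0.1716) or 3 (0.08175), or any one AMPA library (0.06724 to 0.1063), was left out, and with voom (0.05677). The sum of GSTA1 and GSTA2 gave 0.95 (limma adjusted p 0.0446). GSTA1 alone gave 0.57 (limma adjusted p 0.2193).

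GSTA1 was at 2.24 to 2.45 FPKM with glyphosate+2,4-D, against 0.691 to 1.26 FPKM with glyphosate, and GSTA2 at 4.39 to 6.89 FPKM with the mixture, against 2.24 to 3.13 FPKM with glyphosate. In all, 5 members lay above glyphosate in every mixture library (GSTA1, GSTA2, GSTA4, GSTK1 and MGST1), against 20.3% of all genes without overlap in either direction. The log2 difference of GSTA1 was 0.74 (95% interval 0.22 to 1.25, limma adjusted p 0.4163). GSTA2 gave 0.96 (interval 0.50 to 1.41, limma adjusted p 0.2492) and GSTA4 gave 0.41 (0.19 to 0.62, limma adjusted p 0.3052). None was called, as no gene of the 13405 was in that comparison, the lowest limma adjusted p being 0.117, and 4 members had an unadjusted p under 0.05 (GSTA1, GSTA2, GSTA4 and GSTK1) among 1066 genes. With voom 4 members had an unadjusted p under 0.05, among 974 genes, and 0 an adjusted one.

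Against 2,4-D, glyphosate+2,4-D gave log2 differences of 0.48 for GSTA1, 0.46 for GSTA2 and 0.43 for GSTA4 (95% interval 0.22 to 0.65, limma adjusted p 0.8647), and AMPA+2,4-D gave 0.37 for GSTA1 (0.6283) and 0.38 for GSTA2 (0.5676). Libraries did not overlap for 2 members in the first pair (GSTA4 and MGST1) and 1 in the second (MGST2), against 12.5% and 17.3% of all genes. No member was called in either, against 0% of all genes. By limma 2 and 0 members had an unadjusted p under 0.05, among 578 and 1415 of all genes tested. By voom 1 and 0 members did, among 458 and 1404 genes. Over the 4 pairs GSTM4 differed by −0.08 to 0.06, GSTO1 by −0.12 to 0.06, GSTK1 by −0.04 to 0.15 and MGST1 by 0.00 to 0.26. A p that misses the threshold does not show that mixture and component act alike, and against 2,4-D the intervals of GSTA1 ran from −0.03 to 0.99 with glyphosate+2,4-D and from −0.14 to 0.88 with AMPA+2,4-D.

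**Figure D4:**
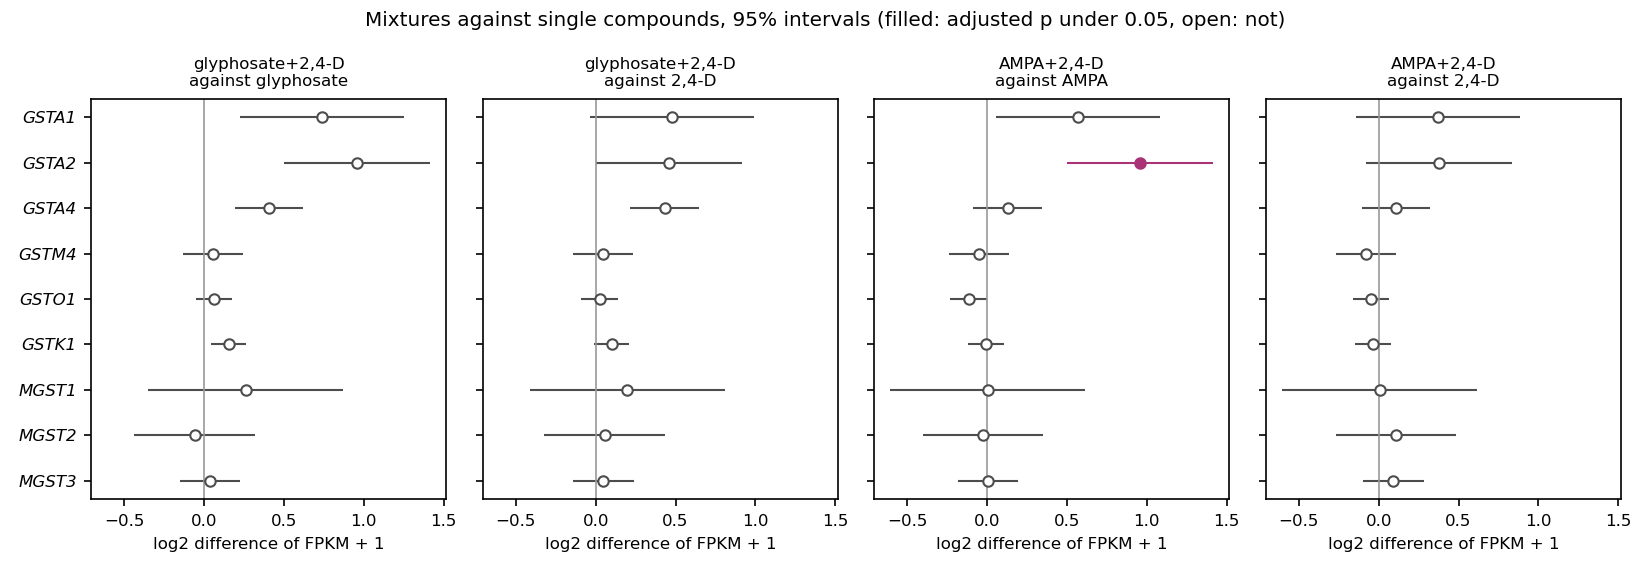
Log2 difference of FPKM + 1 (x axis) with 95% intervals for the 9 members tested (rows) in the 4 pairs of mixture against single compound; filled symbols have an adjusted p under 0.05. GSTA2 in AMPA+2,4-D against AMPA, at 0.96, is the 1 filled point. The points of GSTA1, GSTA2 and GSTA4 lie above 0 in all 4 pairs, though some of their intervals cross 0.

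Other genes of glutathione handling were counted by lists chosen with earlier results of these data known. Of 6 other transferase genes tested, 2 were higher and 1 lower in each exposure, and against unexposed replicates 4-6 alone 2 were higher and 2 lower. Of all genes 25.0% to 28.0% were higher and 22.6% to 25.1% lower in the exposures. Against replicates 4-6 alone these shares were 24.6% to 27.3% and 21.3% to 23.6%. The median log2 difference of the 6 genes was 0.02 to 0.14. GSTZ1, which isomerises maleylacetoacetate in tyrosine breakdown, was at 1.48 to 1.97 FPKM in exposed and 2.61 to 3.23 FPKM in unexposed libraries and fell by 0.44 to 0.53 on the log2 scale. The mu class gene GSTM3 was at 3.22 to 4.11 FPKM in exposed and 2.32 to 3.11 FPKM in unexposed libraries, 0.27 to 0.45 higher. CLIC1, an intracellular channel protein with a transferase-like fold, was 0.18 to 0.34 higher, and with AMPA+2,4-D it was not called against unexposed replicates 1-3 alone (0.07, limma adjusted p 0.1202).

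Of 17 genes of glutathione synthesis and recycling, 4, 4 and 3 were higher and 9, 9 and 8 lower with glyphosate, AMPA and 2,4-D, 4 were higher and 8 lower with glyphosate+2,4-D, and 3 were higher and 9 lower with AMPA+2,4-D. Among all genes 25.0% to 28.0% were higher and 22.6% to 25.1% lower. The median log2 difference of the 17 genes was −0.30 to −0.21. CHAC1, which degrades glutathione, was at 1.64 to 3.20 FPKM in exposed and 4.63 to 6.78 FPKM in unexposed libraries and fell by 0.78 to 1.16. GLRX2, the mitochondrial glutaredoxin, was at 4.78 to 6.69 FPKM in exposed and 9.31 to 11.04 FPKM in unexposed libraries and fell by 0.56 to 0.86. Both were called in all 5 exposures and against either unexposed set alone (limma).

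Between unexposed replicates 4-6 and 1-3, 3 of the 17 were also higher and 9 lower, against 15.7% and 15.9% of all genes. Against replicates 4-6 alone 5 to 9 were lower in the exposures, the 5 with glyphosate+2,4-D, where 21.3% to 23.6% of all genes were lower. GCLM, the regulatory subunit of the first enzyme of glutathione synthesis and chosen after its values were seen, was at 5.77 to 8.31 FPKM in exposed libraries and 6.75 to 6.999 FPKM in unexposed replicates 4-6, against 19.3 to 25.1 FPKM in replicates 1-3, the pattern of MGST1. Between the unexposed sets it fell by 1.59 (limma adjusted p 7.9e-10) and its partner GCLC, also chosen after its values were seen, by 0.66 (1.3e-09).

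Of 16 genes of the mercapturate pathway and conjugate export, 4, 4, 4, 3 and 4 were higher in the 5 exposures in the order above. In that order 6, 5, 4, 3 and 5 were lower. Among all genes 25.0% to 28.0% were higher and 22.6% to 25.1% lower. The median log2 difference of the 16 genes was −0.20 to −0.03. ANPEP, an aminopeptidase that trims conjugates, fell by 0.50 to 0.69, standing at 28.5 to 34.1 FPKM in exposed and 41.2 to 51.0 FPKM in unexposed libraries. KYAT1, a cysteine conjugate beta-lyase, was 0.66 to 0.95 higher, and the dipeptidase CNDP2 fell by 0.34 to 0.39. Between the unexposed sets 6 of the list were higher and 6 lower, against 15.7% and 15.9% of all genes. Against replicates 4-6 alone 5 to 7 were higher and 5 to 7 lower in the exposures. The shares of all genes there were 24.6% to 27.3% and 21.3% to 23.6%.

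Of 13 transcription factor genes tested, 5, 6, 6, 5 and 6 were higher and 5 lower in each exposure. Among all genes 25.0% to 28.0% were higher and 22.6% to 25.1% lower. The median log2 difference of the 13 genes was 0.07 to 0.18. Of the 13, 1 was higher and 4 were lower in unexposed replicates 4-6 than in 1-3, against 15.7% and 15.9% of all genes. The small MAF genes MAFF and MAFK, partners of NFE2L2, were 0.93 to 1.30 and 0.77 to 1.10 higher, and MAFF stood at 11.1 to 15.4 FPKM in exposed and 5.02 to 6.44 FPKM in unexposed libraries. HNF4A fell by 0.69 to 0.84 and stood at 23.9 to 28.4 FPKM in exposed and 43.1 to 45.6 FPKM in unexposed libraries. NFE2L2, chosen after its values were seen, was called in AMPA+2,4-D alone, 0.20 higher (limma adjusted p 0.0005787). The part of these levels in those of the transferases was not tested.

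**Figure D5:**
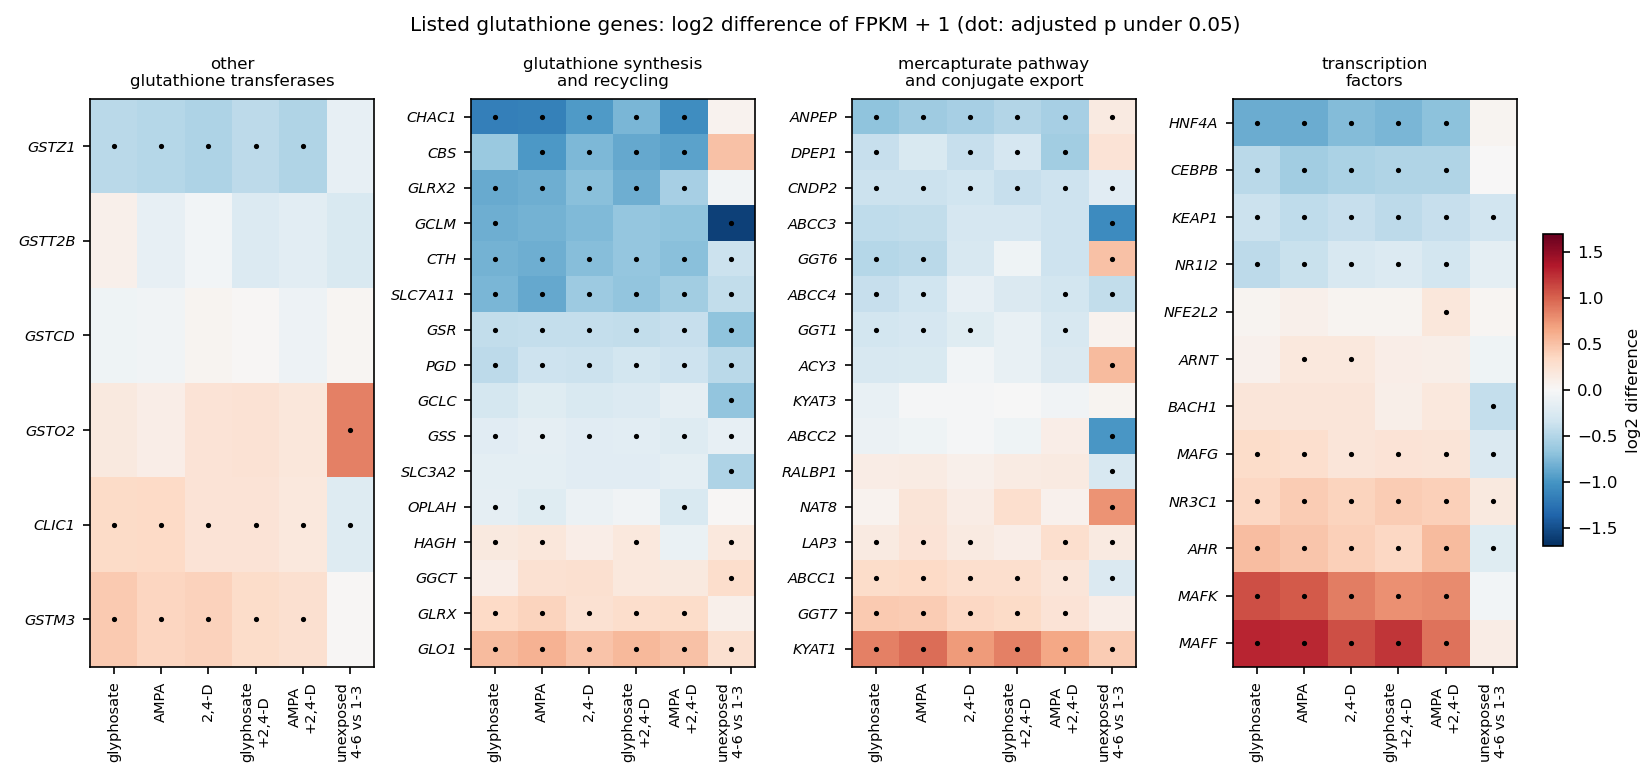
Log2 difference of FPKM + 1 (colour, red higher and blue lower) for listed genes (rows, in 4 lists) in each exposure against unexposed cells and in unexposed replicates 4-6 against 1-3 (last column); dots mark an adjusted p under 0.05. MAFF is the reddest gene in each exposure, at 0.93 to 1.30, and GCLM is the bluest between the unexposed sets, at −1.59.

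The genes most like each member were found by Pearson's r of log2(FPKM + 1) over the 21 libraries among protein-coding genes, as a description. GSTA1 was most like ADH4 (0.967), SLC17A2 (0.947) and PSAT1 (0.946), and GSTA2 was most like ZNF189 (0.936), SLC17A2 (0.933) and ADH4 (0.923). GSTA4 was most like AIG1 (0.889), GSTO1 like RAP1A (0.921), and GSTK1 like CAT (0.738). MGST1 was most like KIF3C (0.974) and MGST2 like EPB41L2 (0.972). GSTM4 and MGST3 reached at most 0.780 (VRK1) and 0.802 (THAP12). All these values also carry the difference between exposed and unexposed libraries and, for MGST1 and MGST2, that between the unexposed sets.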

How the data were processed

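The values used are FPKM deposited by the authors in a separate file for every group. Per the submitters' processing notes, HISAT2 2.0.5, featureCounts 1.5.0-p3 and GRCh38 (hg38) were used. Per the labels, RNA came from QIAzol lysates cleaned on RNeasy columns, with library preparation by a SMARTer kit; the strand setting is not given in the sources used here. FPKM times gene length gave whole reads within 0.1 of a read for 100% of values. Genes with at least 1 FPKM in at least 3 libraries and listed in all tables were tested (13405 of 23375 in all tables; 45 more passed the filter and were left out). A limma 3.58.1 model with a mean-variance trend was fitted to log2(FPKM + 1), which understates changes of low genes, under R 4.3.3 with its package data.table (1.17.8). The threshold for a call was an adjusted p of 0.05. Summaries used Python 3.11.15, pandas 2.3.3, numpy 2.4.6 and matplotlib 3.10.9. The procedure was tested on simulated data. The members, lists and tests were chosen with earlier results of these data known. All 10 members are named, and from each list at most the 3 genes with the smallest mean p rank over the exposures; others are said to be chosen later, and some listed genes are counted but not reported here. Alternatives were voom on recovered reads, a replicate block, fits of the compared groups or exposed libraries alone, either unexposed set left out, each library left out, median-of-ratios or TPM scaling, no filter, and a pseudocount of 0.1. Median-of-ratios scaling could change little, since its factors on the deposited values were 0.995 to 1.01, so like results under it add no check. Levels per kilobase of transcript were added after the data were seen.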

Additional observations from a re-analysis of the deposited data

Results flagged for a closer look

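In a group of 4 to 10 libraries, a library was noted when its gap to the nearest other one, divided by the range of the group, passed Dixon's 95% critical value, which chance passes in about 1 in 20 groups. Among the 6 unexposed libraries, GSTP1 passed with a value of 0.697: replicate 4 was at 0.0859 FPKM (3 reads), replicate 6 at 0.0260 FPKM (1 read) and the others at 0. MGST3 passed with a value of 0.628: replicate 2 was at 1.61 FPKM and the next library at 1.33 FPKM.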

How the results depend on the processing

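Counts of called members stayed within 1.5 times of those reported, except as follows. For AMPA+2,4-D against AMPA the count was 0 without a filter, with voom and with the compared groups alone, and 0 to 1 with each library left out. For glyphosate+2,4-D against unexposed cells it was 2 to 5 with each library left out. It was 5 with the replicate block and 5 without unexposed replicates 4-6, which both rest on unexposed replicates 1-3 alone. For AMPA+2,4-D it was 3 to 6 with each library left out, and between the unexposed sets 5 with voom and 2 to 3 with each library left out. Left-out libraries gave 5 to 6 for glyphosate, 4 to 6 for AMPA and for 2,4-D, and 0 for the other mixtures. Signs turned, each without a call, in the settings that follow. Without unexposed replicates 1-3 they did for MGST2 in 2,4-D (−0.072), for GSTA4 (0.0034), MGST1 (0.072) and MGST2 (−0.017) in glyphosate+2,4-D, and for GSTM4 in glyphosate (−0.027), AMPA (−0.043) and 2,4-D (−0.017). Without replicates 4-6, and with the replicate block, they did for MGST3 in 2,4-D (−0.011) and GSTM4 in AMPA+2,4-D (0.095), and GSTM4 in that mixture also gave 0.0023 with a pseudocount of 0.1 and 0.010 with voom. Under TPM they did for MGST3 in glyphosate (−0.034), 2,4-D (−0.049) and glyphosate+2,4-D (−0.0076), for GSTK1 in that mixture (−0.048) and between the unexposed sets (−0.0037), and for GSTM4 in AMPA (−0.060). With libraries left out they also turned for GSTA4 in glyphosate+2,4-D (−0.064 to 0.0013), in AMPA+2,4-D against 2,4-D (−0.030 to 0.18) and against AMPA (−0.010 to 0.20), for GSTO1 (−0.027 to 0.011) and MGST3 (−0.12 to 0.010) between the unexposed sets, for GSTK1 (−0.050 to 0.022) and MGST3 (−0.045 to 0.073) in 2,4-D, for MGST3 in glyphosate (−0.021 to 0.093) and for GSTM4 in AMPA+2,4-D (−0.034 to 0.037). In the 4 mixture pairs the members outside the alpha class changed sign in 27 of 336 values, with no call. The cause was not tested.

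TPM moved the median of all genes by −0.15 to −0.09 against unexposed cells, and the share of calls that were higher was 37.6% against 52.5% on FPKM with glyphosate, 29.8% against 53.1% with AMPA, 35.8% against 52.4% with 2,4-D, 31.5% against 52.9% with glyphosate+2,4-D and, last, 33.2% against 51.7% with AMPA+2,4-D. For AMPA+2,4-D against AMPA it was 69.2% against 25.9%, and between the unexposed sets 38.8% against 49.7%. Under TPM the MGST2 calls with glyphosate, AMPA and AMPA+2,4-D were lost. Replicate numbers were not shown to pair libraries, since 0 of 45 same-number pairs had a correlation over 0.1 (range −0.119 to 0.0884); the unexposed sets share no number, so no block was fitted between them. With the block the GSTA2 calls in glyphosate+2,4-D (adjusted p 0.3105) and AMPA+2,4-D (0.1757) were lost, while GSTM4 (0.22, adjusted p 0.04466), MGST1 (−1.11) and MGST2 (0.70) were called in glyphosate+2,4-D and MGST2 in 2,4-D (0.65). GSTM4 was also called between the unexposed sets with voom (0.34, adjusted p 0.03653). GSTK1 was called lower under TPM with glyphosate, AMPA and AMPA+2,4-D, and MGST3 in none of 157 values over comparisons and settings. Depth limits GSTP1 and, at 13 to 55 reads, GSTA1.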
